A study of Mus musculus with 2 samples.

Results

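The genes described here are 35 genes shared by most blood leukocytes, chosen as a gauge of the leukocytes left in a skin wound without the transcription factor PU.1. They were taken by gene symbol from a fixed list, and all 35 were found among the 24346 genes measured. The values are FPKM (fragments of a gene scaled to exon length and to library depth, so that levels of different genes can be compared) from bulk mRNA sequencing of dorsal skin of C57BL/6J mice, harvested 24 h after wounding of 1-day-old pups. The WT group has the intact gene, and the PU.1-/- group (labelled PU.1_KO) lacks PU.1 in all cells. Both groups were littermates with full-thickness wounds of 1 cm, which the methods call incisional and the design text excisional, and no treatment is named. Each group is 1 library, and the number of pups in a library is not stated, so no test between genotypes was possible and no p-value is given.

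Leukocytes crawl, adhere and signal with a set of proteins that most other tissues lack. These cells carry the phosphatase CD45 and tetraspanins on their surface, hold on to vessel walls and matrix with β2 integrins, and drive movement with a dedicated form of nearly each actin and Rac regulator that other cells also have. Signals from antigen, Fc and chemokine receptors pass through kinases of the SRC and TEC families and are damped by the phosphatases SHP-1 and SHIP1. PU.1 is a DNA-binding factor of the ETS family that myeloid and early lymphoid cells need for their development, and promoters of several of these genes, among them Itgam, Itgb2 and Btk, are known to be bound by it.

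Spi1, the gene that encodes PU.1, stood at 35.4 FPKM in WT against 1.45 in PU.1-/-, which left 4.12% of the WT level. The values are per gene and do not show which exons the remaining reads come from. Depth was recovered from the steps in which low values move, and came to about 13800000 fragments in WT and 15800000 in PU.1-/-. The libraries also differ in sex-linked genes, with Xist listed at 0 FPKM in WT against 9.48 in PU.1-/-, and Ddx3y at 21.0 FPKM and 0. Genotype and this difference cannot be told apart. Intervals below are exact binomial (Clopper-Pearson) intervals at 95% on the estimated reads of a gene, and they cover counting error only, not the spread between animals.

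Of the 35 genes, 33 were at least 2-fold lower in the PU.1-/- wound and none was higher. Over all 24346 genes, 4.34% were lower by this rule, in which values below 0.1 FPKM are raised to 0.1 before the ratio is taken. A bulk value does not separate fewer leukocytes from less RNA per leukocyte. The median gene kept 1.52% of its WT level, and the log2 ratio of PU.1-/- to WT had a median of −4.90, against −0.01 over all 16298 genes that reached the floor of 0.1 FPKM in either library. The 1.52% counts genes listed at 0 as 0%. The median was 4.50% with these left out, 3.55% with a pseudocount of 0.1 FPKM, and 15.3% with the floor raised to 1 FPKM, where the median log2 ratio was −2.71 and 31 of the 35 genes were lower. A value of 0 in these files can be a failed estimate, since of 94 ribosomal protein genes 1 was listed at 0 in WT and 2 in PU.1-/-, and the respiratory chain gene Ndufs5 had 0.00156 FPKM in WT against 15.8 in PU.1-/-. In WT, 34 of the genes reached 1 FPKM. Of these 34, 33 were lower, 27 were at or below 10% of WT and 7 were listed at 0 in PU.1-/-. Among the 12987 genes that reached 1 FPKM in WT, the shares were 4.54%, 2.26% and 1.07%. The plot of levels by role shows each gene in both libraries.

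**Figure D1:**
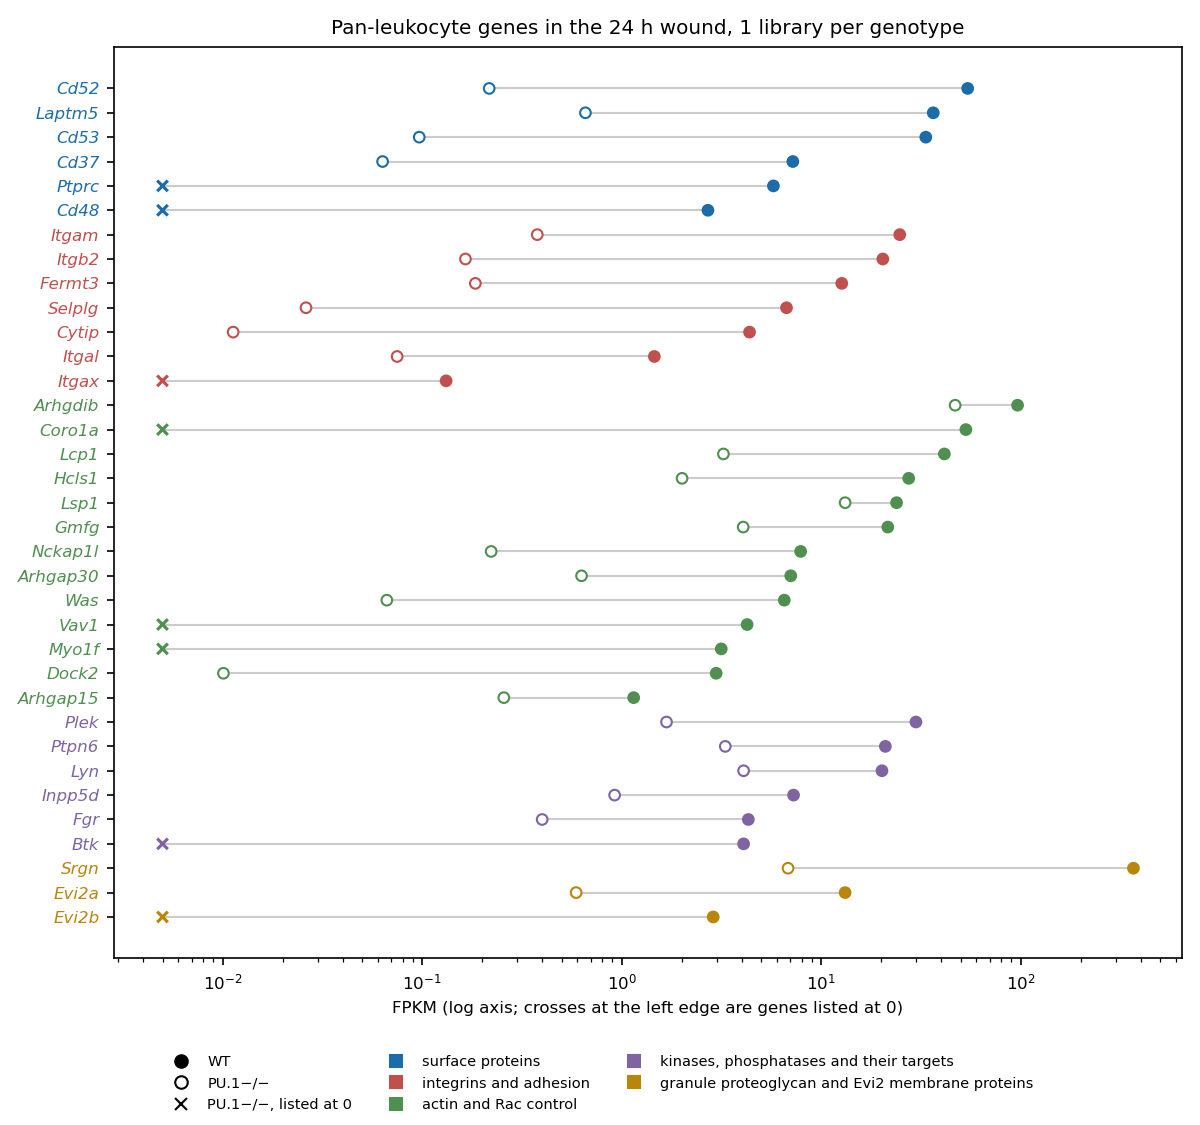
FPKM on a log axis for the 35 genes in the WT library (filled) and the PU.1-/- library (open, or a cross where the gene is listed at 0), with colours for the role of the protein. WT values run from 0.132 FPKM (Itgax) to 368 FPKM (Srgn), and in PU.1-/- only Arhgdib and Lsp1 stay above 10 FPKM.

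The promoters of these genes were searched for the core letters that PU.1 prefers, GAGGAAGT, on either strand and from 250 bases before to 50 bases after the start of transcription. RefSeq (GRCm38.p6, the assembly of mm10) gave promoters for 27 of the 35 genes. The letters occurred for 5 of the 27 (18.5%), which are Inpp5d, Cd37, Vav1, Cd53 and Evi2b, and for 3.69% of the 27025 genes with a promoter. The shorter GAGGAA, which the longer word contains, occurred for 17 of the 27 (63.0%) and for 31.3% of all. A match is a run of letters and was not tested as a binding site. The promoters that hold the longer word are shown because it is the rarer of the searched words, with the match in capitals. Their genes kept from 0 to 12.7% of the WT level, a range that most of the 35 genes share, and Gmfg (18.8%) and Arhgdib (48.7%) hold the shorter word. For Gmfg and Arhgdib these matches belong to an annotated start inside the gene, which begins further upstream, at 28437469 and 136941899. In Cd53 and Evi2b the longer word lies just inside the transcribed part, and 30 bases around it are given. All sequences are on the strand of the gene, 5′ to 3′, so a match on the other strand reads ACTTCCTC.
Inpp5d, chr1:87620232-87620311, plus strand: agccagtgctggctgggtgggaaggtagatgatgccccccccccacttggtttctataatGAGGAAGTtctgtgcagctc
Cd37, chr7:45238840-45238924, minus strand: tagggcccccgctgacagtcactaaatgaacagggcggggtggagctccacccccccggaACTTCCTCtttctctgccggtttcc
Vav1, chr17:57279029-57279099, plus strand: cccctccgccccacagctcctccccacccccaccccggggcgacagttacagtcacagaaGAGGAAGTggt
Cd53, chr3:106790125-106790154, minus strand: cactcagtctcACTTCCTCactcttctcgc
Evi2b, chr11:79523735-79523764, minus strand: gctactgataaACTTCCTCtgctgcacaga
In Inpp5d, Cd37 and Vav1 the match begins 20, 25 and 11 bases before the start. For Cd37 this is an annotated start inside the gene, which begins further upstream, at 45239340, so the stretch shown is within it. Ptprc and Itgam, whose proteins define leukocytes and myeloid cells, hold only the 6-letter word. In Ptprc it begins 158 bases before an annotated start that lies inside the gene. The gene itself begins further upstream, at 138175756, so the stretch shown is within it. In Itgam the word begins 84 bases before the start and, on the other strand, 15 bases before it and 33 bases into the transcript.
Ptprc, chr1:138175418-138175503, minus strand: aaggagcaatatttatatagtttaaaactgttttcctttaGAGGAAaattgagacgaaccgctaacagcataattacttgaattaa
Itgam, chr7:128062516-128062601, plus strand: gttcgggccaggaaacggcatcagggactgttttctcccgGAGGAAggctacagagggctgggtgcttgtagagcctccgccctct
Itgam, chr7:128062585-128062639, plus strand: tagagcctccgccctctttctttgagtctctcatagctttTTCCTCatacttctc

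The 6 surface proteins were all lower. Their median of 0.344% of the WT level, which counts genes at 0 as 0%, was the lowest of the role groups. By the median log2 ratio they did not stand apart, at −6.01 against −6.04 for the genes of integrins and adhesion. Ptprc encodes CD45, the phosphatase that marks every nucleated blood cell, and had 5.77 FPKM in WT and was listed at 0 in PU.1-/-. Cd52, a small GPI-anchored glycoprotein of leukocytes, had 54.3 FPKM in WT against 0.217 in PU.1-/-, which stands for 218 reads and 1 read. Among the tetraspanins, Cd53 had 33.5 and 0.0968 FPKM, so 0.289% was left (interval 0.0295 to 0.885). The B cell-rich tetraspanin Cd37 was at 7.22 FPKM in WT and at 0.0634 FPKM, about 1 read, in PU.1-/-. None of these 4 genes kept as much as 1% of WT as listed, although at 1 read in PU.1-/- the interval of Cd37 reaches 4.86% and that of Cd52 2.25%. Laptm5, a lysosomal membrane protein of blood cells, had 36.5 FPKM and 0.659 FPKM, with 1.8% left (1.16 to 2.67). Cd48, a ligand of the SLAM receptor family, had 2.71 FPKM in WT and was listed at 0 in PU.1-/-. In Cd48 only about 27 WT reads stand behind the value, so 3 reads in PU.1-/- would already have been 9.67% of WT.

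Of the 7 genes of integrins and adhesion, 6 were lower, and the median level left was 0.810%. The common β2 subunit Itgb2, which every leukocyte integrin of this family needs, had 20.4 FPKM in WT against 0.165 in PU.1-/-, or 752 reads and 7 reads, leaving 0.810% (0.325 to 1.68). Its partner Itgam (CD11b) of neutrophils, monocytes and macrophages was the most abundant α subunit, with 24.8 and 0.378 FPKM and 1.52% left (1.01 to 2.25). Itgal (CD11a), shared by lymphoid and myeloid cells, was less abundant than Itgam in WT, at 1.46 FPKM, and had 0.0750 FPKM in PU.1-/-. With 68 and 4 reads, Itgal kept 5.12% with an interval from 1.36 to 13.7, which overlaps those of Itgb2 and Itgam. With a floor of 1 FPKM, Itgal was no longer 2-fold lower (log2 ratio −0.55). Itgax (CD11c), a marker of dendritic cells, was near the limit of detection at 0.132 FPKM in WT, about 7 reads, and was listed at 0 in PU.1-/-. It is 1 of the 2 genes not counted as lower, since the floor of 0.1 FPKM lies just below its WT value.

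Integrins are switched on from inside the cell by kindlin-3, the product of Fermt3, which had 12.7 FPKM in WT against 0.185 in PU.1-/-. Fermt3 kept 1.45% (0.468 to 3.42), close to Itgam. Selplg encodes PSGL-1, the selectin ligand with which leukocytes roll on endothelium, and had 6.71 FPKM and 0.0262 FPKM. Cytip, which binds cytohesins and tempers adhesion, had 4.38 and 0.0113 FPKM. Each PU.1-/- value of Selplg and Cytip stands for 1 read, against 223 and 336 reads in WT, with upper limits of 2.2% and 1.45% of WT.

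The 13 genes that control actin and Rac or act beside them spread the most. Of these, 12 were lower, the median level left was 7.33%, and single genes ranged from listed at 0 to 55.3%. The exchange factors that load Rac were listed at 0 or at a value worth 1 read. Vav1, an exchange factor for Rac, had 4.26 FPKM in WT and was listed at 0. Dock2, the Rac exchange factor behind leukocyte chemotaxis, had 2.98 FPKM and 0.0101 FPKM, which is 257 reads against 1. Further along this path, Was (WASP, an activator of the ARP2/3 complex) had 6.54 and 0.0666 FPKM, and Nckap1l (HEM1 of the WAVE complex) 7.90 and 0.222 FPKM. Was kept 1.02% (0.122 to 3.73) and Nckap1l 2.81% (1.60 to 4.63), and these intervals overlap. Myo1f, a membrane-bound myosin, had 3.16 FPKM in WT and was listed at 0.

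Coro1a, which organises cortical actin in leukocytes, was the second most abundant of the 13 in WT, at 53.2 FPKM, and was listed at 0 in PU.1-/-. About 1071 WT reads stand behind Coro1a. At the depth of PU.1-/- and the median level left, which counts genes at 0 as 0%, they would correspond to 18.8 reads there. Whether the 0 of Coro1a is a lack of reads or a failed estimate cannot be told from the FPKM. Lcp1 (L-plastin, an actin bundler) had 41.5 and 3.24 FPKM, with 7.82% left (6.41 to 9.42). Hcls1, the leukocyte form of cortactin, had 27.5 and 2.01 FPKM, with 7.33% left (5.51 to 9.60). Lcp1 and Hcls1 therefore kept more than Itgb2, Itgam or Dock2, beyond counting error.

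Arhgdib and Lsp1 kept the most of all 35 genes. Arhgdib, a GDP-dissociation inhibitor that is abundant in blood cells, was the second most abundant gene of all 35 in WT, at 96.6 FPKM, and the most abundant in PU.1-/-, at 47.0 FPKM. It kept 48.7% (39.5 to 59.9), at a WT over PU.1-/- ratio of 2.05 just past the 2-fold threshold, which it no longer reached with both libraries rescaled to the same FPKM sum. Lsp1, an F-actin-binding protein of leukocytes that endothelial cells also make, had 23.9 FPKM and 13.2 FPKM. At 55.3% left (47.2 to 65.1) and a ratio of 1.81, Lsp1 lies just on the other side of the threshold, and the intervals of these genes overlap. Gmfg, which debranches actin networks, had 21.6 and 4.07 FPKM, with 18.8% left (10.7 to 31.7). Of the GTPase-activating proteins, Arhgap15 (for Rac) had 1.15 and 0.257 FPKM and Arhgap30 7.05 and 0.630 FPKM. They kept 22.3% (9.94 to 45.5) and 8.93% (6.40 to 12.3), and Arhgap15 was no longer 2-fold lower with a floor or a pseudocount of 1 FPKM.

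All 6 genes of kinases, phosphatases and their targets were lower, with a median of 11% left. Btk, the TEC-family kinase of B and myeloid cells, was the exception at the low end, with 4.09 FPKM in WT and a value listed at 0 in PU.1-/-. Of the SRC-family kinases, Lyn had 20.2 FPKM in WT against 4.09 in PU.1-/-, with 20.3% left (17.3 to 23.6). Fgr, which is restricted to myeloid cells more than Lyn, had 4.32 and 0.400 FPKM, with 9.26% left (5.53 to 14.7). The intervals of Lyn and Fgr do not overlap. The phosphatases that oppose such kinases stood between them. Ptpn6 (SHP-1) had 21.0 and 3.31 FPKM, with 15.8% left (12.7 to 19.5), and Inpp5d (SHIP1) had 7.28 and 0.923 FPKM, with 12.7% left (9.24 to 16.8). Plek (pleckstrin), a protein kinase C substrate of platelets and leukocytes, had 29.9 and 1.68 FPKM, with 5.63% left (4.57 to 6.87).

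Srgn encodes serglycin, the proteoglycan that packs the granules of mast cells, neutrophils and other leukocytes, and alone made up 37.6% of the summed WT level of the 35 genes. It had 368 FPKM in WT against 6.83 in PU.1-/-, with 1.85% left (1.47 to 2.32). The membrane proteins Evi2a and Evi2b are encoded inside Nf1, on the opposite strand. Evi2a had 13.2 FPKM in WT against 0.592 in PU.1-/-, with 4.50% left (2.32 to 8.13). Evi2b had 2.88 FPKM in WT and was listed at 0. Their host gene Nf1, a Ras regulator of most cells, had 3.71 FPKM and 4.69 FPKM (127% of WT, 114 to 141).

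**Figure D2:**
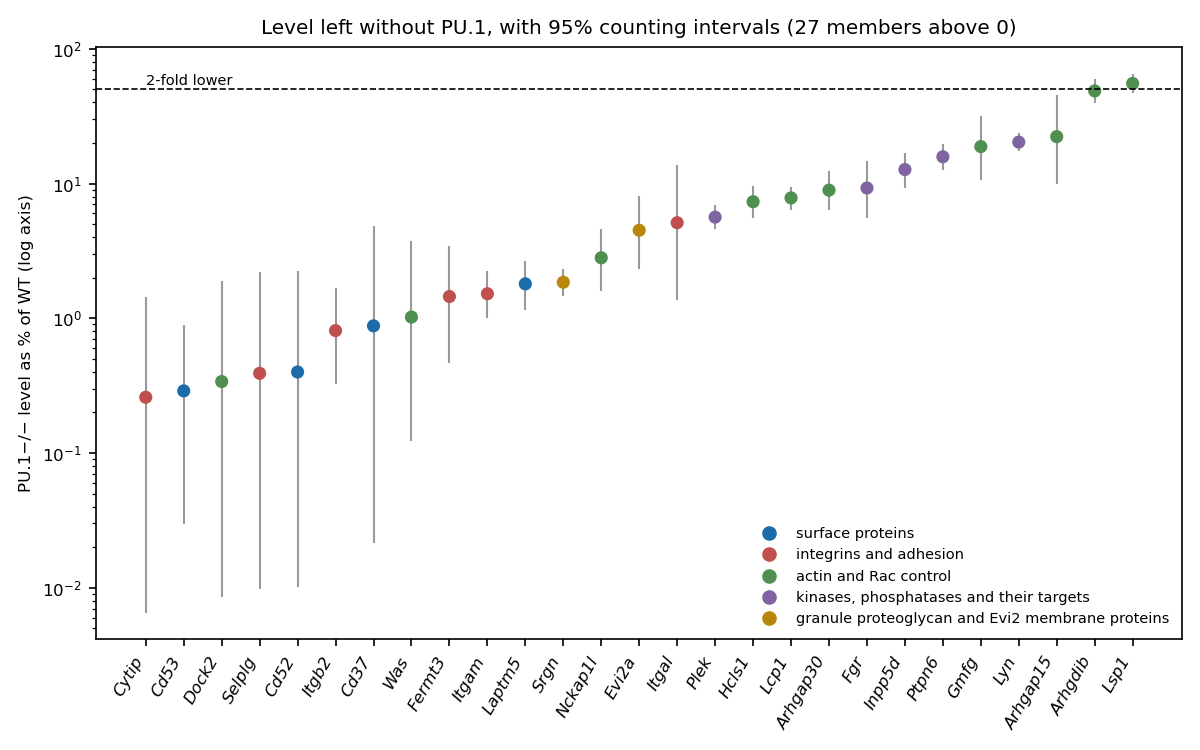
PU.1-/- level as percent of WT on a log axis for the 27 genes above 0 in PU.1-/-, in rising order and coloured by role, with 95% counting intervals as bars and the 2-fold threshold as a dashed line. The order runs from Cytip at 0.259% to Lsp1 at 55.3%, and intervals are widest where the PU.1-/- value stands for 1 or 2 reads.

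The genes kept unequal shares of their WT levels. In PU.1-/-, 8 genes were listed at 0, 12 kept up to 2% of the WT level, 8 kept between 2% and 10%, 5 kept between 10% and 25%, and 2 kept more. Among the genes above 0, the intervals of neighbours in this order overlap all along it, whereas those at its ends do not. Overlap does not show that 2 values are equal, and neighbours were not compared directly. The 8 genes at 0 rest on unequal numbers of WT reads. At the median level left, and if a 0 stands for a count, 6.15 reads of Ptprc would be expected, 2.77 of Myo1f, 2.61 of Vav1 and 2.31 of Btk, but only 1.16 of Evi2b, 0.473 of Cd48 and 0.123 of Itgax. That median of 1.52% counts the 8 genes themselves as 0%. The median of 4.50% over genes above 0 would give more expected reads for each. Summed over the 35 genes, the level was 979 FPKM in WT against 90.5 in PU.1-/-, or 9.24%. Arhgdib and Lsp1 supplied 66.6% of the PU.1-/- sum and 12.3% of the WT sum. Without these genes, which were set aside after their values were seen, the sum kept 3.52% of the WT level, and without Srgn, the largest part of the WT sum, it kept 13.7%.

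Most of these leukocyte genes belong to families with a member that other tissues use, so the same kind of protein can be compared inside and outside blood cells. A set of 34 such relatives, counting the cytohesins that Cytip binds, had a median log2 ratio of 0.07, and none of the 34 was 2-fold lower or higher (range −0.52 to 0.36). In 22 pairs, of which Cytip with Cyth2 is a protein and a binding partner and not a family pair, the leukocyte gene kept a smaller share of its WT level than the other gene in all 22, where the choice of leukocyte genes and of broadly expressed relatives fixes much of this direction. These other genes kept from 80.8% (Coro1b) to 129% (Fermt2). Coro1a with 53.2 FPKM and Coro1b with 69.7 FPKM were of like abundance in WT, whereas in PU.1-/- Coro1a was listed at 0 and Coro1b had 56.3 FPKM. Lcp1 supplied 29.4% of the sum with its relative Pls3 (99.5 FPKM in WT, 96.7 in PU.1-/-) in WT, and 3.24% in PU.1-/-. For the β integrins, Itgb2 stood beside Itgb1, which partners collagen and fibronectin receptors and had 178 FPKM in both libraries.

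The WAVE and WASP pairs followed the same pattern, with Nckap1 at 64.0 and 69.6 FPKM and Wasl (N-WASP) at 19.0 and 21.6 FPKM. Cttn (cortactin) had 84.8 and 98.5 FPKM, so that Hcls1 supplied 24.5% of this pair in WT and 2% in PU.1-/-. Among Rac exchange factors, Vav2 had 4.58 and 4.85 FPKM and Dock1 12.1 and 13.4 FPKM. Within the SRC family, Yes1 (12.8 and 15.1 FPKM) was less abundant than Lyn in WT, the only pair of the 22 in which the leukocyte gene was the higher, and more abundant in PU.1-/-. Src itself had 14.7 and 14.8 FPKM. Ptpn11 (SHP-2) had 49.1 and 49.7 FPKM beside Ptpn6, and Inppl1 (SHIP2) 11.8 and 13.7 FPKM beside Inpp5d. In each of these pairs the broadly used form was the higher of the pair in PU.1-/-. Arhgdib differed least from its relative, since Arhgdia was itself at 86.4% of WT, with 213 and 184 FPKM. The remaining genes of the pairs were Gmfb, Myo1e, Fermt2, Plek2, Cyth2 (the partner of Cytip), Laptm4a, Cd63, Cd81 and Ptprf, at 96.4% to 129% of WT.

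**Figure D3:**
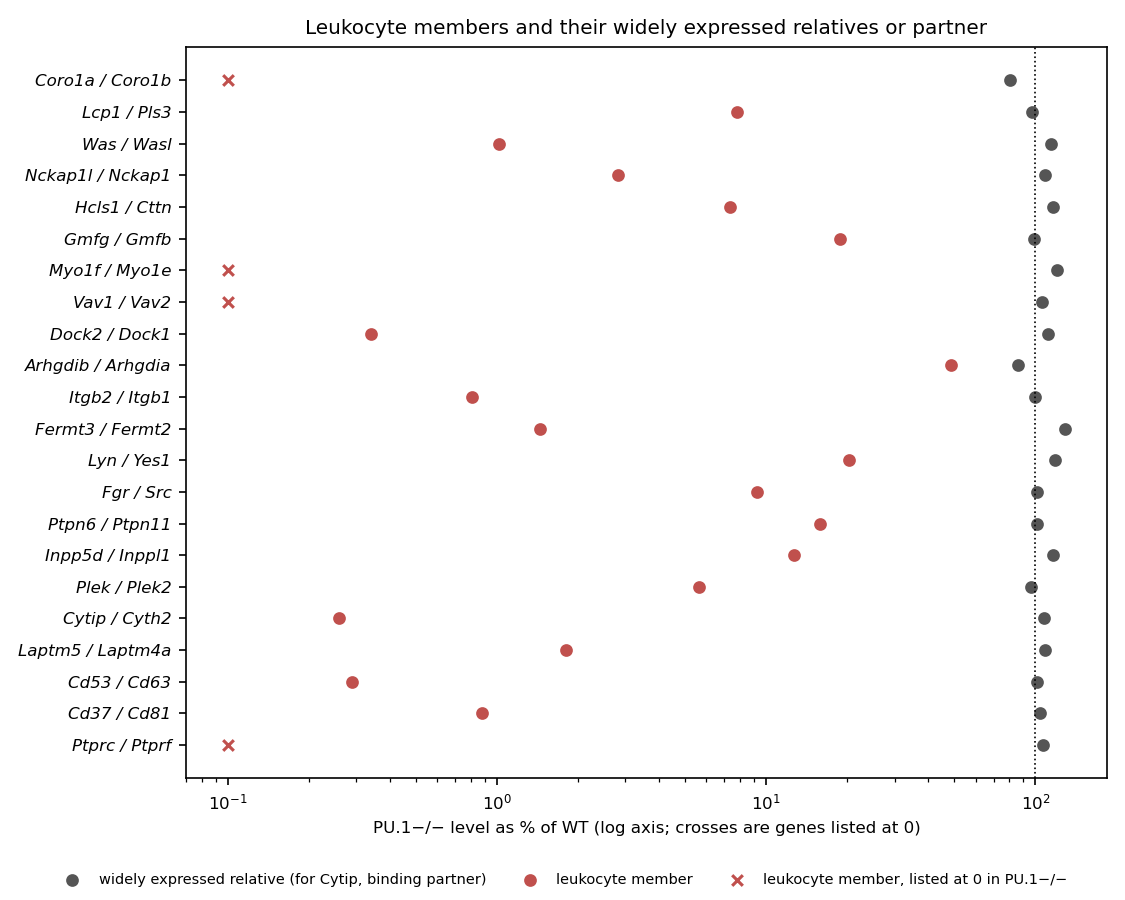
PU.1-/- level as percent of WT on a log axis for 22 leukocyte genes (red, crosses where listed at 0) and a widely expressed relative or, for Cytip, binding partner of each (grey). The grey points lie between 80.8% and 129%, and the red points run from listed at 0 to 48.7% (Arhgdib).

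A further 40 leukocyte genes outside the 35 gave a broader view of the same pathways. Of the 40, 32 were at least 2-fold lower and none was higher, with a median log2 ratio of −3.45 and a median of 4.97% left. Alox5ap, which activates leukotriene synthesis, led in WT with 87.3 FPKM and had 0.313 FPKM in PU.1-/-. Samsn1, an adaptor of blood cells, had 22.0 and 0.960 FPKM. The oxidase subunit Ncf4 had 21.2 FPKM in WT and Rac2, the GTPase that DOCK2 and VAV1 load, had 17.7 FPKM, and each was listed at 0 in PU.1-/-. Themis2 (2.97 FPKM) and Il10ra (3.07 FPKM) were also listed at 0. At the other end, Traf3ip3 had 2.15 and 3.84 FPKM, Elmo1, the partner of DOCK proteins in many cells, 3.92 and 3.73 FPKM, and Stk10 3.36 and 2.80 FPKM. Elmo1 kept 95.2% (80.9 to 112), unlike its leukocyte partner Dock2.

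Markers of single cell types stood beside these values as follows. All 10 macrophage markers were lower, their sum was 730 FPKM in WT against 6.46 in PU.1-/-, Tyrobp (196 FPKM in WT) was listed at 0 and Cd68 was the highest in PU.1-/- at 4.12 FPKM. Of the mast cell markers, 9 of 10 were lower, from a sum of 752 to 15.5 FPKM, with Tpsb2 at 224 and 0.788 FPKM and Hdc highest in PU.1-/- at 6.91 FPKM. Of the 9 neutrophil markers found, 7 were lower, and the granule genes Ngp, Retnlg and Ltf were listed at 0. The granule gene Camp, in contrast, had 77.6 and 23.9 FPKM, with 30.8% left (26.2 to 36.1). Cxcr2 had 11.2 and 7.17 FPKM, with 63.8% left (55.1 to 73.8), and was not 2-fold lower. The neutrophil sum still had 3676 FPKM against 12564 in WT, nearly all S100a8 (6600 and 2129 FPKM) and S100a9, which wounded keratinocytes also make. T cell markers were scarce in both libraries (sums of 6.19 and 1.91 FPKM), and the receptor chains Cd3d, Cd3e and Cd3g were listed at 0 in PU.1-/-, while Lck had 1.43 and 1.11 FPKM.

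Markers of other blood lineages were mixed, and several lists rested on a gene that tissue cells also express. The 9 B cell markers found summed to 7.11 and 6.66 FPKM, of which Ebf1, also used by fat and stromal cells, held 6.22 and 6.34 FPKM, and 1 was lower. Among markers of NK and innate lymphoid cells, 4 of 10 were lower, none was higher and 7 were listed at 0 in PU.1-/-. Gata3, which keratinocytes also express, was the highest, at 15.4 and 14 FPKM. In WT 5 of these 10 were below 1 FPKM. Of those at 0, Ncr1, Eomes, Klrb1c and Klrd1 had only about 1 to 4 reads in WT, too few to show a loss. Il7r, also at 0, had 3.86 FPKM in WT, about 178 reads. Of the Langerhans and dendritic cell markers, 3 of 10 were lower and 1 was higher (Zbtb46, 1.28 and 2.77 FPKM). In WT 6 of these 10 were below 1 FPKM, and 3, among them Cd207, were listed at 0 in both libraries. H2-Aa had 7.66 FPKM in WT, about 98 reads, and was listed at 0 in PU.1-/-. Cd74 had 11.2 and 0.372 FPKM, with 3.33% left (1.2 to 7.36). Itgax, described above with the integrins, is also on this list. The epithelial gene Epcam held most of the sum (62.9 and 73.7 FPKM). Platelet markers split, since Pf4 (635 and 2.35 FPKM) and Ppbp were lower, whereas Itga2b (3.19 and 3.83 FPKM) and Gp1bb (5.25 and 4.99 FPKM) kept 120% (96.3 to 150) and 95.1% (66.9 to 136).

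Summed tissue markers were higher in PU.1-/-. Endothelial markers summed to 238 FPKM in WT against 266 in PU.1-/-, 112% of WT, with Pecam1 at 65.3 and 78.7 FPKM. Of the 10 markers only Vwf was 2-fold higher (2.82 and 5.90 FPKM, 209%, 184 to 238), and Cldn5 was at 83.9% (74.4 to 94.7). The part of endothelium in the levels of Arhgdib, Lsp1 and Srgn was not tested. Fibroblast markers (Col3a1 highest, 1042 and 1110 FPKM) kept 119% and keratinocyte markers (Krt14 highest, 4659 and 5195 FPKM) 114% of the WT sum, with none of either list 2-fold different. Skeletal muscle markers (Acta1 highest, 3224 and 5955 FPKM) were at 164% with 2 of 10 higher, and the 8 red blood cell markers found (Hba-a1 highest, 516 and 748 FPKM) at 168% with 3 higher.

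**Figure D4:**
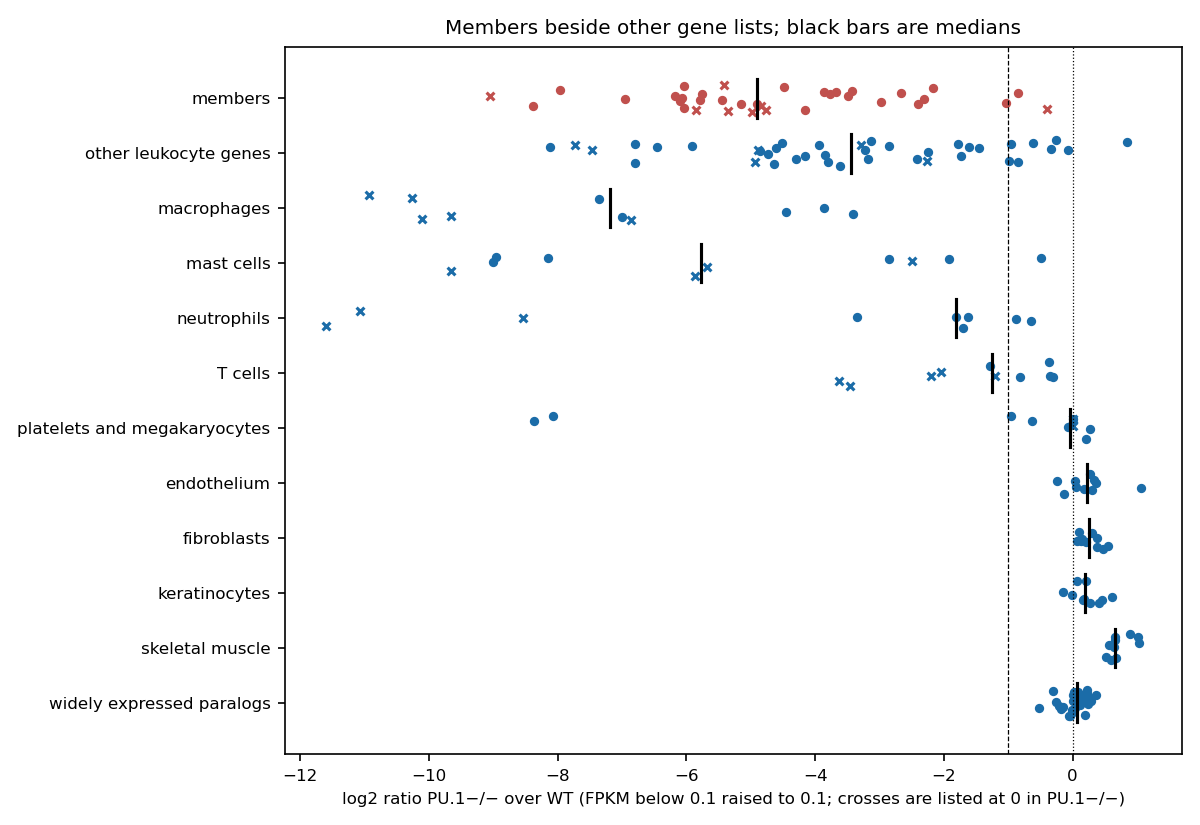
log2 ratio of PU.1-/- over WT for the 35 genes (red) and for other gene lists (blue), 1 point a gene, with FPKM below 0.1 raised to 0.1, crosses where PU.1-/- is listed at 0 and black bars at the medians. The medians run from −7.18 for macrophage markers and −4.90 for the 35 genes to 0.07 for the widely expressed relatives and 0.66 for skeletal muscle.

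On the genome the 35 genes lie on 15 chromosomes, and 7 of them on chromosome 7. There Coro1a (126699774 to 126704816), Itgal (127296139 to 127335137), Itgam (128062640 to 128118491) and Itgax (128129526 to 128150657, all on GRCm38) follow each other, and Itgam and Itgax are 11035 bases apart. Fermt3, Cytip, Lsp1, Arhgap15, Lyn, Evi2a and Evi2b overlap another annotated gene, and the sources used here do not say how reads there were assigned. Flanking the 35 genes, the nearest other genes of at least 1 FPKM in either library numbered 66, with a median log2 ratio of −0.06. Of all genes 4.34% were 2-fold lower, and of genes that reached 1 FPKM in WT 4.54%. Of the 66 flanking genes, 4 (6.06%) were 2-fold lower. These 4 were Gm19705 (1372054 bases from Ptprc), Cd84 (134439 from Cd48), Adgre1 (29345 from Vav1) and Lcp2 (134534 from Dock2). Cd84, Adgre1 and Lcp2 are themselves genes of leukocytes. Was and Btk are X-linked, and without them 31 of 33 genes were lower.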

How the data were processed

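Total RNA of wounded skin was made into stranded mRNA libraries and sequenced from 1 end over 75 bases, and bases were called with CASAVA 1.8.2. Next, the authors mapped reads to mm10 and calculated the deposited FPKM values with Cuffnorm 2.2.1. The submitters' processing notes name TopHat2 2.1.1, Bowtie2 2.2.8, SAMtools 0.1.18 and Cuffdiff 2.2.1. The annotation is not given in the sources used here. FPKM corrects for gene length and depth, and a gene listed at 0 can be a failed estimate as well as a lack of reads.

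Ratios were taken from the deposited values after raising values below 0.1 FPKM to 0.1, and percentages of WT from the values as listed. Read numbers were recovered from low values. The worth of 1 read was 1.149 times higher in WT, the ratio shared by 432 low genes, and 0.0631 FPKM per kilobase of length less 200 nt in PU.1-/-, from 381 genes. For 98.1% of 839 low genes a whole-read pair gave the ratio within 0.02 reads. For 9 of the 35 genes such a pair of at most 10 PU.1-/- reads fitted the transcript length. For the others the shortest transcript that GENCODE links to RefSeq was used, which gives the fewest reads and the widest interval. Of 1272 genes with a single length and 1 to 5 estimated reads, 78.8% lay within 0.1 of a whole read.

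The 35 genes and all lists were chosen with earlier results of these data known. All members are named, with the paired relatives, the 4 most abundant, 3 most and 3 least retained of the other leukocyte genes, and the highest marker of each list in each library where it adds a value. Beyond this rule, further markers, Nf1, the sex-linked genes and the flanking genes were named after their values were seen. Arhgap45 and Epb42 were found under older symbols. Alternatives of floor, pseudocount, scaling, filter and fold threshold were computed, and leaving out X-linked genes was added after seeing the data. Functions were tested on simulated libraries. Scripts ran under Python 3.11.15 with scipy 1.17.1 (intervals), numpy 2.4.6, pandas 2.3.3 (tables) and matplotlib 3.10.9 (figures).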

Additional observations from a re-analysis of the deposited data

How the results depend on the processing

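No paired analysis was possible because each genotype has 1 library. Among all 35 genes, the count of 33 lower ones ranged from 31 (floor of 1 FPKM) to 34 (pseudocount of 0.1 FPKM), with 26 of 27 when genes at 0 were left out and 23 of 24 among genes of at least 5 FPKM, and thresholds of 1.5, 4 and 10 gave 34, 32 and 27. With the libraries rescaled to the same FPKM sum it was 32. No direction reversed, and Itgax came to a log2 ratio of 0.00 with a floor of 1 FPKM. With that floor Itgal (−0.55) and Arhgap15 (−0.20) were no longer 2-fold lower, and with a pseudocount of 1 FPKM Arhgap15 (−0.78). A floor of 1 FPKM moved the median log2 ratio of the 35 genes from −4.90 to −2.71, the summed level left to 11.4%, the median level left to 15.3% and the median log2 ratio of the other leukocyte genes to −1.61. A pseudocount of 1 FPKM gave −2.41, 12.4%, 18.8% and −1.73. Such constants raise the low PU.1-/- values by construction. Leaving out genes at 0 gave a summed level of 10% and a median left of 4.50%, and the filter at 5 FPKM a median left of 2.33%. The pseudocount of 0.1 FPKM gave a median left of 3.55%. Depth limits the genes with 1 or 2 reads in PU.1-/-, and without replicates the spread between animals is unknown.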
